A study of Mus musculus with 6 samples.

Results

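The genes of glycolysis, glucose uptake, lactate export and glycogen storage were examined in mouse embryonic fibroblasts (MEFs) that had squeezed through narrow pores. The set comprised 36 protein-coding genes chosen by symbol for their place in the pathway, out of 55335 gene rows in the count table. The rule for the set uses no measured value, but the set was chosen with earlier results of these data known. The 36 symbols correspond to 37 rows, since Aldoa is annotated as 2 protein-coding genes. The study asked which genes change in cells that migrate under confinement. All cells were wild-type (WT) MEFs, an adherent connective tissue cell grown in Dulbecco's medium with fetal bovine serum. Confine denotes cells seeded on top of a transwell membrane with 3 μm pores and collected after passing it within 15 h, and Ctrl denotes parental cells. The transwell method in the paper, given for wider pores, places cells in serum-free medium above medium with serum. Passage through the pores, the selection of cells able to pass, the time on the membrane and any difference in serum cannot be told apart in this comparison. Neither the labels nor the methods say whether replicates came from separate cultures, so p-values measure only the spread between these libraries, which may be technical.

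Glycolysis converts glucose to pyruvate in the cytosol, and lactate dehydrogenase reduces pyruvate to lactate, which leaves the cell through monocarboxylate carriers. Most steps can be carried out by several isoenzymes, encoded by separate genes and used by different tissues, such as the muscle enolase ENO3 and the broadly expressed enolase ENO1. Pyruvate dehydrogenase kinases (PDK) phosphorylate and switch off pyruvate dehydrogenase, which turns pyruvate into acetyl-CoA in the mitochondrion, and many genes of the pathway are textbook targets of hypoxia-inducible factor (HIF), which binds a short DNA element with the core ACGTG or GCGTG.

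Polyadenylated RNA was sequenced and the authors deposited raw read counts per gene in 6 columns. The columns of Confine replicates 1 and 2 held the same count in every gene and were counted as 1 library, named Confine 1 here, which leaves 3 Ctrl and 2 Confine libraries. Total counts ranged from 22287210 to 27853805 in Ctrl and were 32537550 and 27290138 in Confine. Of the 10 fibroblast markers, Thy1, Dcn and Lum had at most 2 counts in any Ctrl library (Dcn had 27 and 3 counts in Confine), and the summed level of the 10 was 9209 to 10320 CPM (counts scaled to a common library total) in Ctrl and 14298 to 15223 in Confine. The 8 leukocyte markers reported summed to 16.9 to 18.8 CPM in Ctrl and 32.4 to 38.1 in Confine, with Adgre1 and Cd3e at 0 throughout. Single leukocyte markers went opposite ways, with Cd68 at 2.44 to 4.21 CPM in Ctrl and 15.1 and 21.5 in Confine, and Lyz2 at 3.90 to 5.46 and 0.522 and 0.733. The 6 skeletal muscle markers summed to 5.52 to 6.96 and 12.9 to 15.2 CPM, with Myod1 at 0. The 6 epithelial markers, of which Epcam, Krt18 and Cldn4 were at 0, summed to 0.359 to 0.450 and 3.53 to 8.10 CPM. Krt19 made up most of the epithelial sum in Confine, at 3.50 and 7.48 CPM, against 0.144 to 0.286 in Ctrl. The 5 endothelial markers, with Emcn at 0, summed to 0.314 to 0.777 and at most 0.147 CPM. The 6 neural markers, with Rbfox3 at 0, summed to 3.63 to 4.99 and 0.696 to 0.830 CPM. Most of the neural sum was Map2, at 3.37 to 4.58 CPM in Ctrl and 0.799 and 0.550 in Confine. The part of these shifts in the results was not tested, and in bulk RNA a changed number of cells of a type and a changed amount of RNA per cell cannot be told apart.

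Most of the pathway stood higher in Confine, from glucose entry to lactate production. Of the 31 genes with enough counts to be tested, 22 rose and 2 fell by the quasi-likelihood test of edgeR at a Benjamini-Hochberg adjusted p under 0.05, and 7 did not pass. Among all 15881 genes tested, 23.0% passed, 12.8% as higher and 10.2% as lower. With an added requirement of a log2 fold change beyond 1.5, 18 of the 31 were higher, against 4.89% of all genes, and 0 were lower, against 3.11%. The count of lower genes past that cutoff was also 0 at an unadjusted p under 0.05 and by DESeq2 and limma-voom. Both Confine libraries lay above all Ctrl libraries for 23 of the 31 and below them for 3, against 25.9% and 23.6% of all genes. The median log2 fold change, Confine against Ctrl, was 1.78 over the 31 genes and -0.0021 over all genes tested. Scaling by library size alone moved the median of all genes to -0.21 and called 1444 genes higher and 2805 lower, in place of 2035 and 1619 with TMM, and the 22 genes of the pathway that rose were then 21. The 36 genes together took 1.34%, 1.05% and 1.30% of the reads counted in Ctrl, compared with 3.60% and 3.66% in Confine. The 5 genes too low to test were the glucose carrier Slc2a3, the hexokinase-like Hkdc1, the brain aldolase Aldoc, the kinase Pdk4 and the liver glycogen phosphorylase Pygl.

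**Figure D1:**
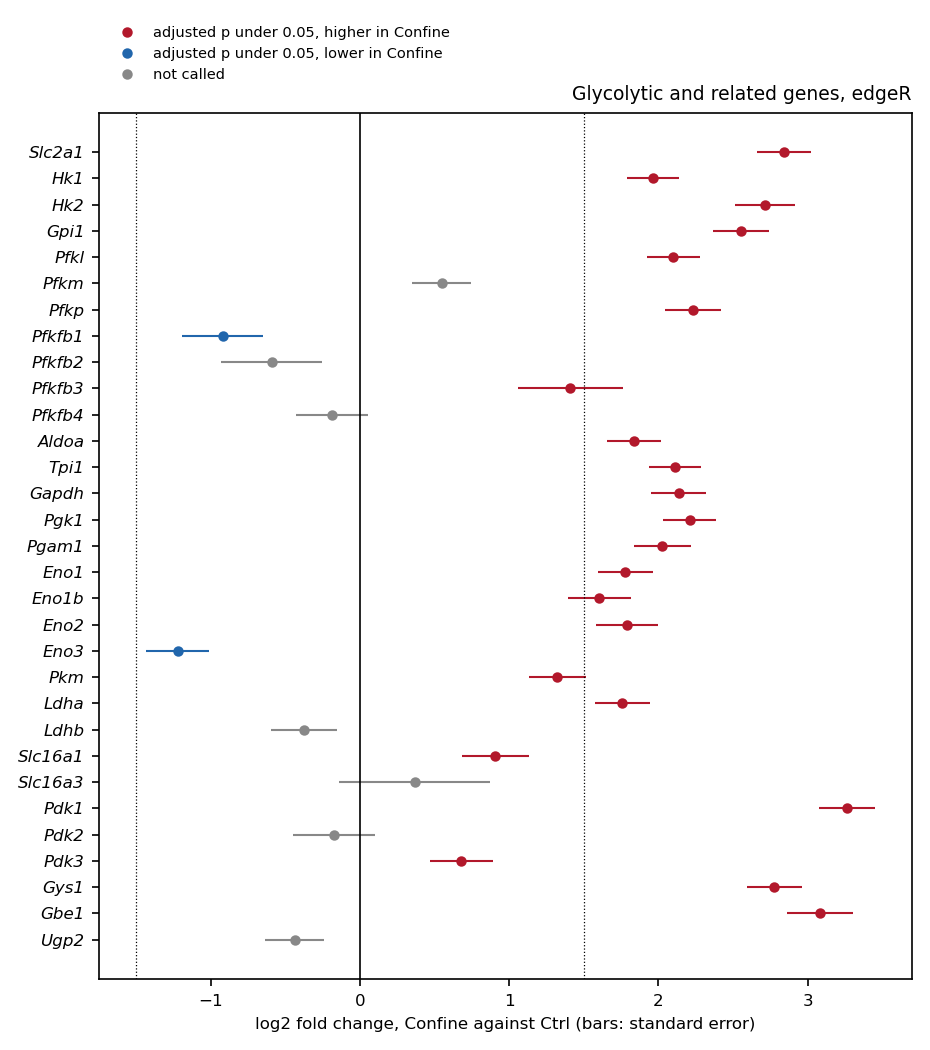
Log2 fold change of each tested gene, Confine against Ctrl, from edgeR (x axis), with genes ordered along the pathway (y axis). Bars are standard errors and dotted lines mark a log2 fold change of 1.5 in either direction. Red marks the 22 genes that rose, blue the 2 that fell (Eno3 and Pfkfb1) and grey the 7 that did not pass.

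Glucose enters fibroblasts mainly through GLUT1, the product of Slc2a1 (GRCm38, chr4:119108711-119137983, plus strand). Levels of single genes from here on, except those of markers, are in CPM normalized by the TMM method. Slc2a1 was at 61.9, 64.1 and 54.2 in Ctrl and 403 and 458 in Confine. The Confine libraries lay far above the Ctrl libraries, with means of 60.1 ± 5.20 (SD, n = 3) and 431 ± 38.6 (SD, n = 2). Slc2a1 rose 7.17-fold (log2 fold change 2.84, SE 0.18, edgeR adjusted p = 2.17e-09). Slc2a3, which encodes the high-affinity carrier GLUT3 of neurons, had 0 counts in all 3 Ctrl libraries and in Confine 3, and 9 counts in Confine 1. A count of 0 allows up to 3 counts in a library, counting error only, so Slc2a1 accounted for nearly all counts of this pair of carriers in every library.

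Hexokinases trap glucose in the cell by phosphorylating it. The ubiquitous Hk1 was at 62.2, 65.2 and 64.1 CPM in Ctrl and at 223 and 275 CPM in Confine. Hk2, the inducible form abundant in muscle and many tumours, was at 74.6, 54.0 and 50.7 CPM in Ctrl and at 431 and 354 CPM in Confine. For both genes the groups were well separated. Hk1 rose 3.90-fold (log2 fold change 1.96, SE 0.18, edgeR adjusted p = 2.18e-07) and Hk2 rose 6.57-fold (log2 fold change 2.72, SE 0.20, edgeR adjusted p = 1.92e-08). Per kilobase of exon, the scale on which genes of unlike length can be compared, Hk2 made up 56.8% ± 5.53 (SD, n = 3) of hexokinase counts in Ctrl and 69.1% ± 6.09 (SD, n = 2) in Confine. Ctrl 1, at 63.2%, lay close to Confine 3, at 64.8%, and the difference in share did not pass (exact permutation test, two-sided, p = 0.2, adjusted p = 0.325 over 26 shares). Without division by exon length, Hk2 held 48.0% in Ctrl and 61.1% in Confine, so which hexokinase led in Ctrl depends on that step. The smallest p that 3 against 2 libraries can give is 0.1, so no share or ratio below could reach 0.05. Hkdc1 had 0 counts in every library.

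Glucose-6-phosphate isomerase, encoded by Gpi1, makes fructose-6-phosphate for the next step. Gpi1 was at 209, 168 and 211 CPM in Ctrl and at 1024 and 1277 CPM in Confine. The groups did not overlap and Gpi1 rose 5.87-fold (log2 fold change 2.55, SE 0.19, edgeR adjusted p = 1.64e-08).

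The 6-phosphofructo-1-kinases commit sugar to glycolysis, and their 3 genes did not move alike. The liver form Pfkl was at 111, 88.6 and 96.8 CPM in Ctrl and at 413 and 435 CPM in Confine. The platelet form Pfkp was at 38.6, 30.1 and 39.4 CPM in Ctrl and at 159 and 179 CPM in Confine. The muscle form Pfkm was at 25.0, 25.3 and 25.3 CPM in Ctrl and at 29.3 and 44.4 CPM in Confine. All 3 genes were higher in both Confine libraries, but for Pfkm Confine 1 stood only slightly above Ctrl. Pfkl rose 4.29-fold (log2 fold change 2.10, SE 0.18, edgeR adjusted p = 9.97e-08) and Pfkp 4.70-fold (log2 fold change 2.23, SE 0.19, edgeR adjusted p = 8.41e-08), whereas Pfkm did not pass (log2 fold change 0.55, SE 0.20, edgeR adjusted p = 0.055). Without Confine 1, Pfkm passed with a log2 fold change of 0.82 (edgeR adjusted p = 0.033). Pfkm shares its locus with Senp1 on the opposite strand, which had a log2 fold change of -0.55 (edgeR adjusted p = 0.0498). Pfkp, at a mean of 2414 counts per library, likewise overlaps Pitrm1 on the opposite strand, at 1387. Within the family, the share of Pfkm per kilobase was 30.3% ± 2.52 (SD, n = 3) in Ctrl and 12.6% ± 2.71 (SD, n = 2) in Confine, while Pfkl held 59.0% ± 2.26 and 73.0% ± 2.83 and Pfkp 10.7% ± 1.01 and 14.5% ± 0.122. The groups were separated for all 3 shares (exact permutation test, two-sided, p = 0.1, adjusted p = 0.2 over 26 shares). Without division by exon length the mean share of Pfkm was 15.8% in Ctrl and 5.81% in Confine.

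PFKFB enzymes make and break down fructose-2,6-bisphosphate, the strongest activator of 6-phosphofructo-1-kinase. All 4 of their genes were low. Pfkfb3, the form with the highest ratio of kinase to phosphatase activity, was at 1.55, 1.66 and 0.978 CPM in Ctrl and at 2.94 and 4.57 CPM in Confine. Pfkfb1, the liver and muscle form, was at 6.91, 5.56 and 7.83 CPM in Ctrl and at 3.11 and 4.05 CPM in Confine. For both genes the groups were separated, in opposite directions. Pfkfb3 rose 2.66-fold (log2 fold change 1.41, SE 0.35, edgeR adjusted p = 0.0061), which was lost without Confine 3 (log2 fold change 1.06, edgeR adjusted p = 0.144). Pfkfb1 fell by 0.92 on the log2 scale (SE 0.27, edgeR adjusted p = 0.019). That call did not hold without Confine 1 (log2 fold change -0.74, edgeR adjusted p = 0.187), Confine 3 (log2 fold change -1.12, edgeR adjusted p = 0.051), Ctrl 1 (log2 fold change -0.91, edgeR adjusted p = 0.053) or Ctrl 3 (log2 fold change -0.82, edgeR adjusted p = 0.057). Apex2, on the opposite strand of the Pfkfb1 locus, had a log2 fold change of -0.56 (edgeR adjusted p = 0.056).

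The heart form Pfkfb2 was at 2.14, 3.51 and 2.85 CPM in Ctrl and at 1.89 and 1.87 CPM in Confine. Pfkfb4, a form first known from testis, was at 6.39, 5.93 and 7.06 CPM in Ctrl and at 5.27 and 6.07 CPM in Confine. Confine lay just below Ctrl for Pfkfb2 and the groups overlapped for Pfkfb4. Neither passed, at log2 fold changes of -0.59 (SE 0.34, edgeR adjusted p = 0.236) and -0.19 (SE 0.24, edgeR adjusted p = 0.638). Pfkfb2, at a mean of 65 counts per library, overlaps Yod1 on the opposite strand, at 1952. In shares of the family per kilobase, Pfkfb1 held 46.8% ± 4.28 (SD, n = 3) in Ctrl and 31.6% ± 1.04 (SD, n = 2) in Confine, and Pfkfb3 held 5.26% ± 1.75 and 17.5% ± 2.73, with separate groups for both (exact permutation test, two-sided, p = 0.1, adjusted p = 0.2 over 26 shares).

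Aldolase splits fructose-1,6-bisphosphate and triose-phosphate isomerase interconverts the products. The main row of Aldoa, the muscle and ubiquitous aldolase, was at 920, 750 and 893 CPM in Ctrl and at 2717 and 3382 CPM in Confine. The isomerase gene Tpi1 was at 611, 533 and 585 CPM in Ctrl and at 2384 and 2606 CPM in Confine. Both Confine libraries exceeded all Ctrl libraries for either gene. Aldoa rose 3.57-fold (log2 fold change 1.84, SE 0.18, edgeR adjusted p = 7.41e-07) and Tpi1 rose 4.33-fold (log2 fold change 2.11, SE 0.17, edgeR adjusted p = 7.04e-08). The second Aldoa row, a neighbouring annotated gene of the same symbol, held 50, 34 and 21 counts in Ctrl and 20 and 38 in Confine and did not pass (log2 fold change -0.27, SE 0.47, edgeR adjusted p = 0.732). Aldoc, the aldolase of brain, had 10, 0 and 3 counts in Ctrl and 3 and 13 in Confine, so its groups overlapped near the floor of 3 counts.

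Gapdh, the gene of glyceraldehyde-3-phosphate dehydrogenase and a common reference gene, was at 149, 107 and 135 CPM in Ctrl and at 556 and 591 CPM in Confine. The libraries of the groups were far apart, and Gapdh rose 4.40-fold (log2 fold change 2.14, SE 0.19, edgeR adjusted p = 1.43e-07). This level was below that of its neighbours in the pathway on the per-kilobase scale, at 31.5 CPM per kilobase in Ctrl against 209 for Tpi1 and 388 for Pgk1. In the annotation, 101 genes held a transcript at least 95% identical to Gapdh over at least 300 bases, of which 99 were pseudogenes and 78 had counts. Their summed counts were 300.4% of those on Gapdh in Ctrl and 316% in Confine. The processed pseudogene Gm13394 alone was at 277, 185 and 271 CPM in Ctrl and at 1007 and 1259 CPM in Confine. Gapdh and all its copies summed to 523 ± 96.7 CPM (SD, n = 3) in Ctrl and 2393 ± 276 CPM (SD, n = 2) in Confine, a ratio of means of 4.58. How reads that match several places were counted is not given in the sources used here, so the level of Gapdh itself is uncertain, while its ratio was alike with and without the copies.

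**Figure D2:**
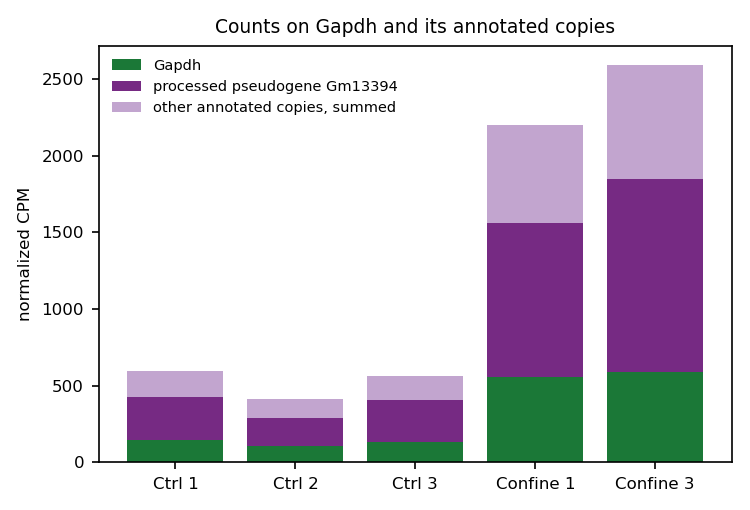
Normalized CPM (y axis) on Gapdh, on its processed pseudogene Gm13394 and on its other annotated copies, stacked, in each library (x axis). The sum was 413 to 595 CPM in Ctrl and 2198 to 2588 CPM in Confine, and Gapdh itself was the smallest of the 3 segments in every library.

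Phosphoglycerate kinase 1, encoded by Pgk1, makes the first ATP of the payoff phase, and the mutase encoded by Pgam1 follows it. Pgk1 was at 967, 808 and 837 CPM in Ctrl and at 4013 and 4041 CPM in Confine. Pgam1 was at 480, 325 and 431 CPM in Ctrl and at 1621 and 1734 CPM in Confine. For both genes the Confine libraries lay close together and well above Ctrl. Pgk1 rose 4.63-fold (log2 fold change 2.21, SE 0.18, edgeR adjusted p = 4.59e-08) and Pgam1 rose 4.07-fold (log2 fold change 2.03, SE 0.19, edgeR adjusted p = 3.99e-07).

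Enolases dehydrate 2-phosphoglycerate, and here the members of the family moved in opposite directions. Eno1, the ubiquitous form, was at 2246, 1629 and 2096 CPM in Ctrl and at 7062 and 6603 CPM in Confine. Eno3, the muscle form (chr11:70657202-70662513, plus strand), was at 228, 149 and 226 CPM in Ctrl and at 91.4 and 80.9 CPM in Confine. Confine lay above every Ctrl library for Eno1 and below every one for Eno3. Eno1 rose 3.43-fold (log2 fold change 1.78, SE 0.18, edgeR adjusted p = 1.27e-06), and Eno3 fell by 1.22 on the log2 scale, a 2.33-fold lower level (SE 0.21, edgeR adjusted p = 2.89e-04). The neuronal form Eno2 was at 7.08, 8.28 and 7.27 CPM in Ctrl and at 22.2 and 29.9 CPM in Confine. It rose 3.45-fold (log2 fold change 1.79, SE 0.21, edgeR adjusted p = 4.46e-06), so the ratio of Eno2 to Eno1 within a library differed by only -0.016 on the log2 scale (exact permutation test, two-sided, p = 0.9, adjusted p = 0.90 over the 6 pairs computed), with a range of -0.28 to 0.25 when single libraries were left out.

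Eno1b, a near-copy of Eno1, was at 31.4, 19.7 and 33.2 CPM in Ctrl and at 90.3 and 80.4 CPM in Confine. Its groups were separated and it rose 3.04-fold (log2 fold change 1.60, SE 0.21, edgeR adjusted p = 1.88e-05). The transcripts of Eno1 and Eno1b were 99.5% identical over 1736 bases, so the split of counts between them is uncertain. Per kilobase, Eno1 made up 73.8% ± 1.60 (SD, n = 3) of enolase counts in Ctrl and 92.7% ± 0.140 (SD, n = 2) in Confine, while Eno3 went from 22.9% ± 1.35 to 3.61% ± 0.136. The groups did not overlap for either share (exact permutation test, two-sided, p = 0.1, adjusted p = 0.2 over 26 shares). Without division by exon length, the difference in the Eno1 share was 7.75 percentage points in place of 18.8, and the Eno3 share was 8.96% in Ctrl and 1.22% in Confine. Of the muscle markers, in CPM of the library total without TMM, Des was at 3.89 to 4.58 in Ctrl and at 8.24 and 11.8 in Confine. Acta1 was at 2.26, 1.23 and 1.21 in Ctrl and at 3.87 and 2.35 in Confine. Tnnt3 overlapped between groups, and Myod1, Myog and Ckm had at most 2 counts in any library. Their part in the Eno3 result was not tested.

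Pyruvate kinase makes pyruvate, and lactate dehydrogenase turns it into lactate. Pkm, whose splice forms PKM1 and PKM2 cannot be told apart in counts per gene, was at 2984, 2142 and 3093 CPM in Ctrl and at 6799 and 6910 CPM in Confine. Ldha, the muscle-type subunit that favours lactate formation (chr7:46841475-46855627, plus strand), was at 3451, 2533 and 3151 CPM in Ctrl and at 10875 and 9741 CPM in Confine. Both genes were separated by group, and Ldha was the most abundant gene of the pathway per kilobase in every library. Pkm rose 2.50-fold (log2 fold change 1.32, SE 0.19, edgeR adjusted p = 4.37e-05) and Ldha rose 3.39-fold (log2 fold change 1.76, SE 0.18, edgeR adjusted p = 1.35e-06). Ldha alone took 0.359%, 0.274% and 0.332% of the reads counted in Ctrl, compared with 0.989% and 0.899% in Confine.

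Ldhb, the heart-type subunit, was at 23.1, 18.3 and 29.4 CPM in Ctrl and at 15.8 and 20.5 CPM in Confine. The groups overlapped and Ldhb did not pass (log2 fold change -0.37, SE 0.22, edgeR adjusted p = 0.252). The ratio of Ldha to Ldhb per kilobase was 70.9, 65.8 and 50.9 in Ctrl and 326 and 225 in Confine. Every Confine ratio exceeded every Ctrl ratio, by 2.13 on the log2 scale on average (exact permutation test, two-sided, p = 0.1, adjusted p = 0.30 over the 6 pairs computed). Lactate leaves through the carriers MCT1, encoded by Slc16a1, and MCT4, encoded by Slc16a3. Slc16a1 ranged from 16.1 to 27.9 CPM in Ctrl and was at 33.6 and 46.6 CPM in Confine, without overlap. It rose 1.88-fold (log2 fold change 0.91, SE 0.22, edgeR adjusted p = 0.0059), which was lost without Confine 3 (log2 fold change 0.65, edgeR adjusted p = 0.180). Gm43581, annotated inside an intron of Slc16a1 on the same strand, had a log2 fold change of 1.90 (SE 0.18, edgeR adjusted p = 4.47e-07). Slc16a3, the carrier common in lactate-exporting cells, had between 12 and 33 counts in each library and did not pass (log2 fold change 0.37, SE 0.50, edgeR adjusted p = 0.662).

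In the fit of all 5 libraries, the largest fold change of the 31 genes was that of Pdk1, one of 4 kinases that switch off pyruvate dehydrogenase. Pdk1 (chr2:71873224-71903858, plus strand) was at 17.3, 20.3 and 16.1 CPM in Ctrl and at 165 and 179 CPM in Confine. Pdk3 was at 16.8, 17.3 and 14.8 CPM in Ctrl and at 20.6 and 31.7 CPM in Confine. Both Confine libraries were higher for either gene, by a wide margin for Pdk1 and a narrow one for Pdk3. Pdk1 rose 9.61-fold (log2 fold change 3.26, SE 0.19, edgeR adjusted p = 6.06e-10), although without Confine 1 the glycogen gene Gbe1 ranked above it (log2 fold changes 3.39 and 3.33). Pdk3 rose 1.60-fold (log2 fold change 0.68, SE 0.21, edgeR adjusted p = 0.024), a call lost without Confine 3 (log2 fold change 0.34, edgeR adjusted p = 0.480), without Ctrl 1 (edgeR adjusted p = 0.055) or Ctrl 3 (edgeR adjusted p = 0.061) and with scaling by library size alone (log2 fold change 0.47, edgeR adjusted p = 0.110). Pdk2 was at 4.56, 3.93 and 4.59 CPM in Ctrl and at 3.41 and 4.33 CPM in Confine, with overlapping groups (log2 fold change -0.17, SE 0.27, edgeR adjusted p = 0.707). Pdk4, the form induced by fasting, had 2, 3 and 5 counts in Ctrl and 1 count in each Confine library, too few to test.

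The make-up of the kinase family differed between the groups. Per kilobase, Pdk3 held 63.1% ± 1.16 (SD, n = 3) of PDK counts in Ctrl and 30.1% ± 5.04 (SD, n = 2) in Confine. Pdk1 held 22.7% ± 1.52 in Ctrl and 66.2% ± 5.16 in Confine, and Pdk2 held 13.8% ± 1.93 and 3.64% ± 0.118. Without division by exon length Pdk1 held 46.1% and Pdk3 42.2% in Ctrl, and 85.2% and 12.8% in Confine, so Pdk3 led in Ctrl only per kilobase. The groups were separated for these 3 shares (exact permutation test, two-sided, p = 0.1, adjusted p = 0.2 over 26 shares). The ratio of Pdk1 to Pdk2 was 1.54, 2.10 and 1.42 in Ctrl but 19.6 and 16.8 in Confine, with a mean difference of 3.45 on the log2 scale (exact permutation test, two-sided, p = 0.1, adjusted p = 0.30 over the 6 pairs).

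**Figure D3:**
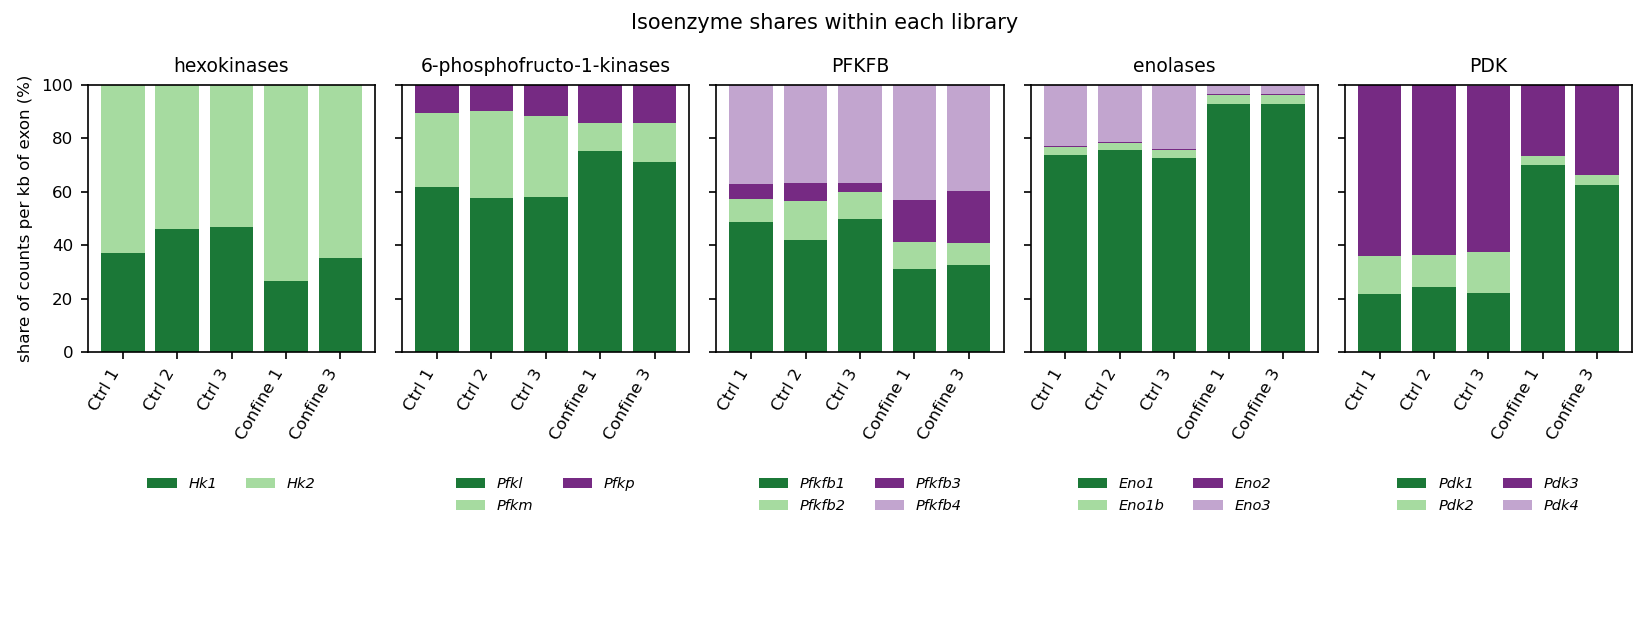
Share of each isoenzyme in the counts of its family per kilobase of exon (y axis, percent) in each library (x axis), for 5 families. Between Ctrl and Confine the mean share of Pdk1 was 22.7% and 66.2%, that of Eno3 22.9% and 3.61%, and that of Pfkm 30.3% and 12.6%.

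Glycogen stores glucose, and its synthesis shares glucose-6-phosphate with glycolysis. Gys1, the muscle-type glycogen synthase, was at 49.0, 41.0 and 44.2 CPM in Ctrl and at 271 and 342 CPM in Confine. Gbe1, the branching enzyme, was at 6.18, 4.95 and 5.78 CPM in Ctrl and at 36.6 and 59.2 CPM in Confine. The groups were far apart for both genes, although the Confine libraries of Gbe1 differed between themselves. Gys1 rose 6.85-fold (log2 fold change 2.78, SE 0.19, edgeR adjusted p = 4.67e-09) and Gbe1 rose 8.48-fold (log2 fold change 3.08, SE 0.22, edgeR adjusted p = 1.49e-08). Gys1 overlaps Ruvbl2 on the opposite strand, which had a log2 fold change of 0.49 (SE 0.19, edgeR adjusted p = 0.076). Ugp2, whose product makes the UDP-glucose used for glycogen, overlapped between groups and did not pass (log2 fold change -0.44, SE 0.20, edgeR adjusted p = 0.126). It passed as lower without Ctrl 2 (log2 fold change -0.55, edgeR adjusted p = 0.028) and with scaling by library size alone (log2 fold change -0.64, edgeR adjusted p = 0.020). Pygl, the phosphorylase of liver that breaks glycogen down, had 1 count in Confine 3 and 0 elsewhere.

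**Figure D4:**
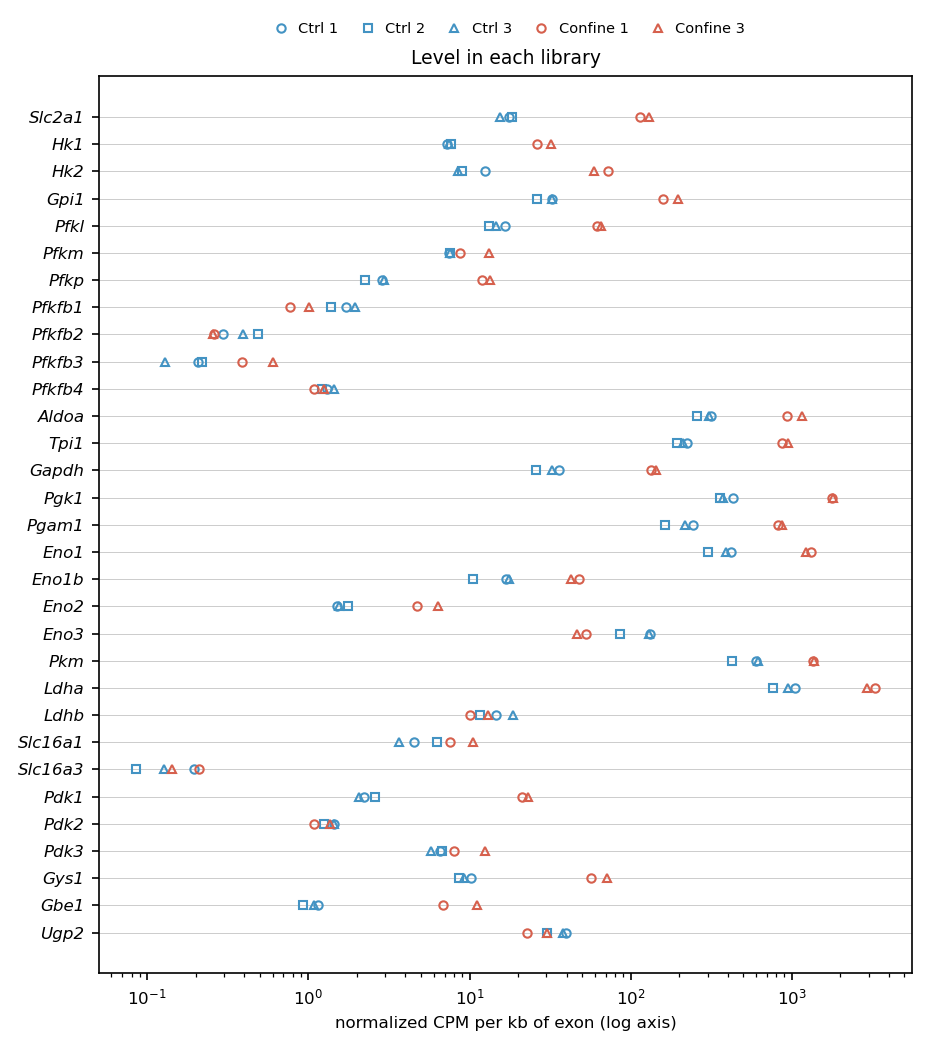
Normalized CPM per kilobase of exon (x axis, log scale) of each tested gene (y axis) in the 3 Ctrl libraries (blue) and the 2 Confine libraries (red). Red symbols lie to the right of all blue ones for 23 genes, to the left for 3 (Pfkfb1, Pfkfb2 and Eno3) and among them for 5.

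Since HIF sites lie close to the start of several of these genes, the letters ACGTG and GCGTG were searched on both strands in RefSeq promoter windows (GRCm38.p6) that run from 250 bases before to 50 bases after an annotated start. Overlapping matches were counted as 1 place. A match is a description of letters and not a bound site. The stretches below are upstream of a RefSeq start, from shortly before the first match to shortly after the last, with the matched letters in capitals. Where a gene had several windows, the one with the most matched places upstream was used. RefSeq starts can differ from the GENCODE gene starts given above, and that of Ldha lies inside the GENCODE gene while that of Slc2a1 lies slightly downstream of its first base. Pgk1 (chrX:106186938-106186985, plus strand), Ldha (chr7:46845647-46845786, plus strand), Slc2a1 (chr4:119108672-119108725, plus strand), Pdk1 (chr2:71873134-71873162, plus strand) and Pgam1 (chr19:41911684-41911799, plus strand) are shown as genes that rose and hold a match.
Pgk1: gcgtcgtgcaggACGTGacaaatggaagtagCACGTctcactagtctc
Ldha: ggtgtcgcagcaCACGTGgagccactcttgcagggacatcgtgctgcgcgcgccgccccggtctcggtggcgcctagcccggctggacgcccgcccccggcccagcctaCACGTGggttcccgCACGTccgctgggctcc
Slc2a1: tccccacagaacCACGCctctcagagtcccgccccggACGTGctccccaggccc
Pdk1: ccgcctacatggGCGTGtctttaaccagg
Pgam1: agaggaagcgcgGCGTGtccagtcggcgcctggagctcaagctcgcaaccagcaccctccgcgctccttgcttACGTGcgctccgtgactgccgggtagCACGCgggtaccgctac

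The same letters stood before genes that fell or did not pass. Eno3 (chr11:70657034-70657062, plus strand), Ldhb (chr6:142508067-142508095, minus strand) and Ugp2 (chr11:21371309-21371503, minus strand) are shown for this contrast, and the stretch of Ugp2 holds 5 places.
Eno3: gagaagggggtaCACGCcccagggcccca
Ldhb: gcgggggagagcGCGTGcacactccagcc
Ugp2: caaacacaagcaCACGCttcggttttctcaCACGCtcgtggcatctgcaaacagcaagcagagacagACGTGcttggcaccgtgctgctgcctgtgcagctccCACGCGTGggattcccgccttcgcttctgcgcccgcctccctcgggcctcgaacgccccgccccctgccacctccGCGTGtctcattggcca

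Of the 34 genes of the pathway with a window, 29 (85.3%) held a match in at least 1 window. The same was true of 66.5% of the tested genes with a window and of 46.7% of all genes in the RefSeq table. A gene with more windows has more places for a match, and the 34 genes had 54 windows, against 32851 for 27025 genes. By window, 39 of the 54 (72.2%) and 43.8% of all windows held a match. The windows of tested genes alone were not counted, so the 43.8% includes genes not tested here and is not a like background. By call, a match stood in a window of 16 of 21 genes that rose, 2 of 2 that fell, 7 of 7 that did not pass and 4 of 4 that could not be tested. The 5 genes that rose without these letters in their window were Eno2, Gpi1, Tpi1, Gys1 and Gbe1.

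Other genes of sugar metabolism went in both directions. Of 82 listed genes, 51 were tested, of which 10 rose and 8 fell, where 12.8% of all genes rose and 10.2% fell, and their median log2 fold change was 0.0040. Bsg, whose product escorts MCT1 and MCT4 to the cell surface, was at 1032, 747 and 903 CPM in Ctrl and at 7040 and 7087 CPM in Confine. It lay far above Ctrl in both Confine libraries and rose by 2.98 on the log2 scale (SE 0.19, edgeR adjusted p = 2.05e-09). Bpgm, which makes 2,3-bisphosphoglycerate, rose by 2.49 (SE 0.19, edgeR adjusted p = 2.94e-08) on that scale, and Slc37a4, the glucose-6-phosphate carrier of the endoplasmic reticulum, by 1.69 (SE 0.20, edgeR adjusted p = 4.17e-06). Gapdhs, the sperm counterpart of Gapdh, was near the floor at 0.151 to 0.468 CPM in Ctrl and 0.874 and 1.22 CPM in Confine, and rose by 1.65 (SE 0.56, edgeR adjusted p = 0.041). Pcx, the pyruvate carboxylase of gluconeogenesis, fell by 1.56 on the log2 scale (SE 0.26, edgeR adjusted p = 2.09e-04).

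Counts in the smaller lists that follow stand against the same 12.8% and 10.2% of all genes. Among 21 other glycogen genes, 15 were tested, 4 rose and 1 fell. Pgm1, the phosphoglucomutase that links glucose-6-phosphate to glycogen, was at 45.6, 39.6 and 41.7 CPM in Ctrl and at 299.6 and 348 CPM in Confine. Epm2a, the glycogen phosphatase laforin, was at 1.59, 1.44 and 1.49 CPM in Ctrl and at 18.7 and 22.8 CPM in Confine. Neither gene overlapped between groups, and they rose by 2.94 (SE 0.18, edgeR adjusted p = 1.49e-09) and 3.78 (SE 0.24, edgeR adjusted p = 2.01e-09) on the log2 scale. In the oxidative and non-oxidative pentose phosphate pathway, 8 of 8 genes were tested and 0 passed by edgeR, with 1 at an unadjusted p under 0.05 and 0 by DESeq2 or limma-voom. Of the 8 genes of the pyruvate dehydrogenase complex and its phosphatases, 3 fell and 5 did not pass. Those that fell were Pdhx, a subunit of the complex (log2 fold change -0.65), Pdp1, a phosphatase that reactivates it (log2 fold change -1.22), and the subunit Dlat, which was at 27.2 to 61.6 CPM in Ctrl and at no more than 21.3 CPM in Confine.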

How the data were processed

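Total RNA was purified on poly(T), and libraries were made with dUTP in the second strand, which keeps the strand. The authors deposited raw read counts per gene, without normalization, for 6 columns. The submitters' processing notes name Trim Galore 0.6.10, HISAT2 2.1.0, SAMtools 1.5, featureCounts and the mm10 genome. The strand setting of the counting and the treatment of reads with several matches are not given in the sources used here, and either could assign reads to another of a set of overlapping or near-identical genes. Of 55335 gene identifiers, 55154 matched GENCODE M21 (GRCm38) without the version, and this annotation gave symbols, positions and exon lengths. Rows that name no gene and columns not used both numbered 0.

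The identical columns were counted as 1 library. Genes passing filterByExpr were normalized by TMM and tested with glmQLFit and glmQLFTest of edgeR 4.0.16 in R 4.3.3, with the group as the only term, 3 residual and 14.8 prior degrees of freedom, and Benjamini-Hochberg adjustment over all 15881 genes. The study compared its groups with DESeq2, which was run here as an alternative (version 1.42.0), as was limma-voom (limma 3.58.1). Shares and ratios of isoenzymes were computed within each library from counts per kilobase of exon and tested over libraries by exact permutation. Ratios were computed for 6 of 8 listed pairs, since Slc2a3 and Aldoc had libraries at 0. Copies were searched with blastn 2.17.0. On counts simulated for 15881 genes, 87% of log2 fold changes of 2 and 58% of those of 1 were recovered, and 3.97% of calls were false. Only 200 genes were changed there, in balanced directions and without a shift in library composition. In the data 23.0% of genes passed, so these rates need not hold for them.

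The genes of the pathway, the lists and the tests were chosen with earlier results of these data known. Values in each library are given for genes called with an absolute log2 fold change above 1 and for the other isoenzymes of their families. Other genes of sugar metabolism are named with values where called beyond 1.5, and Dlat, Pdhx and Pdp1 were named after their values were seen. Depth was 22287210 to 32537550 counts per library, and a floor of 3 counts covers counting error only, as PCR duplicates could not be told from independent molecules without molecular identifiers. Of the marker genes listed, 1 is not reported here.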

Additional observations from a re-analysis of the deposited data

How the results depend on the processing

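Across 444 fold changes of the 31 tested genes under other settings, 425 kept direction and side of the threshold, 12 no longer passed, 7 newly passed and 0 changed sign. The 18 genes that rose beyond a log2 fold change of 1.5 kept direction and adjusted p under 0.05 throughout. Of these, only Eno1b went below 1.5, for example at 1.40 with scaling by library size alone. The cause of the changes was not tested. Leaving out single libraries gave 19 to 23 pathway genes higher and 1 to 3 lower, 5 to 11 other sugar-metabolism genes higher and 3 to 8 lower, and 1196 to 2411 genes higher and 850 to 2015 lower among all. The cutoff at a log2 fold change of 1.5 left 777 genes higher and 494 lower, with 0 pathway genes lower and 6 other sugar-metabolism genes higher and 1 lower. Scaling by library size alone gave 2805 lower genes, 13 of them other sugar-metabolism genes, and counting the identical columns as 2 samples gave 2456. Without division by exon length, the differences in share were 5.65 percentage points for Pfkl, 7.75 for Eno1 and 0.590 for Ldha, and the Pfkm, Eno3, Hk2 and Pdk1 shares moved as given above.

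Whether the replicate numbers pair the libraries could not be decided, since each check rests on 1 difference between libraries per group. With the repeated library as number 1 or 2, Ctrl 1 or 2 minus Ctrl 3 was set against Confine 1 minus Confine 3. The correlation of these differences across genes was 0.077 or -0.091. A replicate block left 1 residual degree of freedom. It called 2640 genes higher and 2293 lower with the library as number 1, and 1448 and 1080 as number 2. The block gave 4 pathway genes lower with the library as number 1 (Ldhb and Ugp2 in addition) and 1 as number 2 (Pfkfb1 lost, adjusted p = 0.066), where other sugar-metabolism genes lower numbered 4 and Pdk3 was lost as higher (adjusted p = 0.084). Pfkm passed as higher with the library as number 1 (adjusted p = 0.028). Ugp2 also passed as lower with the identical columns as 2 samples (adjusted p = 0.033). Depth limits Slc2a3, Hkdc1, Aldoc, Pdk4 and Pygl, for which a change was not detectable.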
